A study of Mus musculus with 8 samples.

Results

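CMP/other is the name that the authors gave, from RNA alone, to a class of progenitor cells in the bone marrow of FlkSwitch mice. The class held 1133 of the 22602 annotated cells, which was 5.01% (exact Clopper-Pearson 95% interval 4.73 to 5.31%, counting error only). Its members were chosen by that RNA annotation, so the 35 surface proteins measured with antibodies in the same cells played no part in the choice. Each antibody carried a DNA barcode, and the barcodes sequenced per cell (antibody-derived tag, or ADT, counts) measure how much of its protein the cell had on its surface. The deposited normalized score of a protein is its ADT count scaled to the other proteins of the cell and then log-transformed, so levels are compared as differences of scores and not as folds.

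Common myeloid progenitors (CMPs) are textbook intermediates between the multipotent progenitors (MPPs), which can form all blood lineages, and 2 kinds of more restricted cells. The megakaryocyte-erythroid progenitors (MEPs) form platelets and red cells, and the granulocyte-macrophage progenitors (GMPs) form neutrophils and macrophages. By flow cytometry CMPs are lineage-negative, CD117 (c-Kit) positive and Sca-1 negative, with CD34 on the surface and little of the Fc receptor CD16/32. MEPs lack both CD34 and CD16/32, and GMPs carry both.

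The mice were C57Bl/6 FlkSwitch animals of 2 to 3 months (young) and 20 to 24 months (old). In both ages Cre is driven by Flk2 (CD135), and its activity switches a cell and its progeny from Tomato to GFP, so cells that never had Cre activity stay Tomato. Live lineage-negative, c-Kit+ cells were sorted as CD150- or CD150+ with adjoining gates, and 8 libraries were made. The cells carried 16 group names, built from a letter (A to D) and a number (1 to 4), that match no library title. Numbers 1 and 2 were young and numbers 3 and 4 were old in the deposited table. The sort fraction, library and animal of a cell are not named, so all cells counted as 1 sample and no test was run. Classes were subtracted within each cell group where both had 10 or more cells, and their SD over cell groups describes spread alone.

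Of the CMP/other cells, 706 were young and 427 were old. They were unevenly spread, with 84.4% in letters A and B, which held 58.7% of all annotated cells. Numbers 2 and 4 held 82.8% of them, against 26.7% of all annotated cells. The share of CMP/other was 17.6% in A2, 19.2% in A4, 21.1% in B2 and 17.7% in B4. In C2, C4, D2 and D4 it ran from 4.86 to 7.89%, and in the 8 groups of numbers 1 and 3 from 0.579 to 2.04%. Every group of number 2 or 4 thus lay above every group of number 1 or 3.

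**Figure D1:**
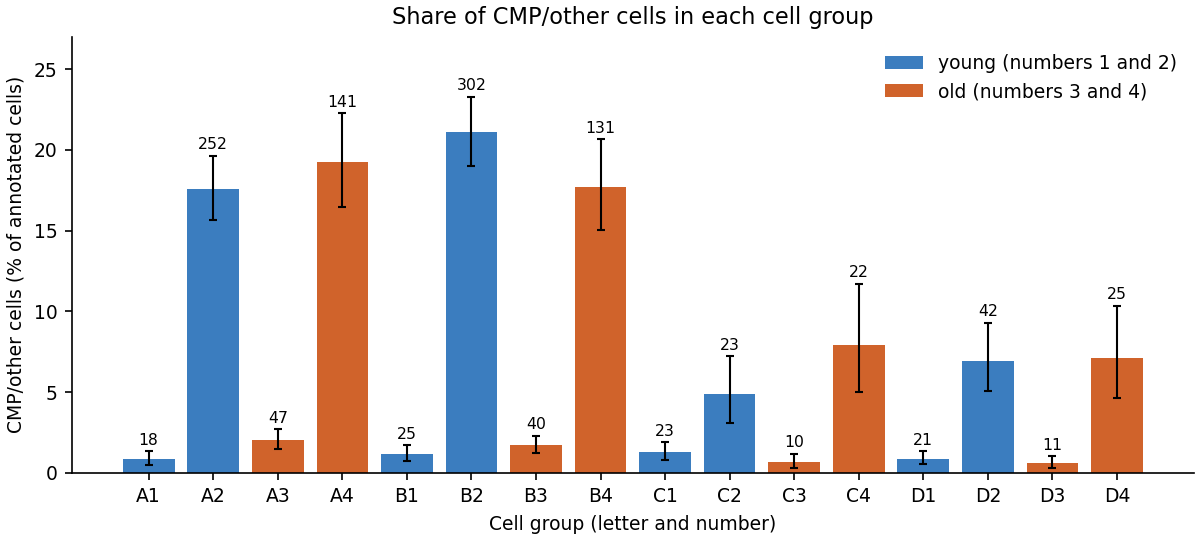
Share of CMP/other cells among the annotated cells of each of the 16 cell groups, in percent, with exact 95% intervals as bars and the number of CMP/other cells above each column. Blue columns are young and orange columns are old groups; the 4 highest columns are A2, A4, B2 and B4, between 17.6 and 21.1%.

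Pooled over numbers, CMP/other made up 5.69% of young cells (5.29 to 6.11%) and 4.19% of old cells (3.81 to 4.59%). Number 2 held 3943 of the 12403 young cells, whereas number 4 held 2103 of the 10199 old cells. Within these numbers the shares were 15.7% in number 2 (14.6 to 16.9%) and 15.2% in number 4 (13.7 to 16.8%), with overlapping intervals. They were 1.03% in number 1 and 1.33% in number 3. The intervals of number 1 (0.824 to 1.27%) and number 3 (1.096 to 1.608%) overlapped as well.

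CMP/other cells were shallow in both measurements. The median cell had 13840 RNA UMIs (quartiles 11245 and 17908) and 679 ADT counts (quartiles 507 and 915), against 44345 UMIs and 1852 ADT counts over all annotated cells. MEPs had medians of 22970.5 UMIs and 942.5 ADT counts, MPPs 18798 and 2170, and the GMP/Neut classes 41876 and 2362. Hematopoietic stem cells (HSCs) had 13559 UMIs but 1173 ADT counts. Young CMP/other cells had 14644 UMIs and 723.5 ADT counts, and old ones 12809 and 586. ADT medians were 679 and 507 in numbers 2 and 4 and 1254 and 952 in numbers 1 and 3. No CMP/other cell exceeded 4.99% mitochondrial reads, and the poorest had 1145 genes. The score depends on depth: thinning every cell to 300 ADT counts gave CMP/other means of 0.618 for CD150 and 0.806 for CD9 over 1100 cells, against 0.722 and 0.916 as deposited over 1133. Thinned differences are therefore given beside the deposited ones. Thinning left out 33 CMP/other cells. Across the series 52 barcodes occurred in more than 1 cell group, and 6 CMP/other cells carried one of them.

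Most ADT counts of CMP/other came from 3 antibodies. The hyaluronan receptor CD44, the stem cell factor receptor CD117 and the SLAM family member CD48 took 31.5%, 24.2% and 18.7% of the ADT counts of the class, and each was counted in 100% of its cells. Their mean normalized scores were 1.57 for CD44, 1.52 for CD117 and 1.42 for CD48. The tetraspanin CD9 followed at 0.916, and CD27, a TNF-family receptor of early and lymphoid-primed progenitors, stood at 0.805. The SLAM receptor CD150 scored 0.722, and the TGF-β co-receptor CD105 (endoglin) 0.580. Among the 19 annotated classes with at least 50 cells, leaving out the cells annotated as unknown, CMP/other ranked 7 for CD117, 5 for CD9, 13 for CD48 and 13 for CD27. CD9 peaked in the megakaryocyte progenitor class (MKP, 1.34) and CD27 in MPP B (1.44). The 4 proteins given as markers of the class were thus all present on it, and none was highest there.

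For CD150, CMP/other ranked 3 of the 19 classes. The next higher means were 0.761 in MKP and 0.755 in HSC, and the next lower was 0.717 in MEP. These 4 values lie closer together than the SD of 0.0923 between CMP/other means of the number 2 and 4 cell groups. This rank and those of CD117, CD9, CD48 and CD27 pooled all cells. Numbers 2 and 4 held 82.8% of CMP/other cells against 26.7% of all annotated cells. CD150 group means of CMP/other ran from 0.265 to 0.456 in numbers 1 and 3 and from 0.737 to 0.989 in numbers 2 and 4. The part of this mix in the ranks was not tested. The mean score of CD34, the sialomucin that marks CMPs by flow cytometry, was 0.159, against 0.611 in GMP/Neut, 0.570 in MPP and 0.205 in MEP. CD34 was counted in 61.3% of CMP/other cells. The Fc receptor CD16/32 had a mean of 0.416, against 1.01 in GMP/Neut and 0.459 in MEP. The CD34 mean of CMP/other was thus nearer to that of MEP than to those of MPP and GMP/Neut. It depended on the number of the cell group, with means from 0.160 to 0.359 over the groups of numbers 1 and 3 and from 0.0731 to 0.163 over those of numbers 2 and 4. The label is kept here as the authors' name. CD34 defines CMPs against MEPs by flow cytometry, yet the CD34 mean of the class was not above that of MEP.

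F4/80, a macrophage adhesion receptor, had its highest class mean over all cells in CMP/other (0.458), with MPP C next (0.443). Its CMP/other means by letter and age ran from 0.451 to 0.522 in A and B and from 0.234 to 0.332 in C and D. Within cell groups F4/80 was higher than on MEP in 6 of 12 (-0.0116 ± 0.0427). The tetraspanin CD63 (0.0876) and the integrin CD11b (0.0292) had their lowest means over all cells. Within cell groups, however, CD63 was higher than on MPP in 8 of 11 and CD11b higher than on MEP in 7 of 12. Antibodies against mature lineages differed in level. CD3 stood at 0.0644, CD4 at 0.0565, CD8a at 0.0813, NK-1.1 at 0.0342 and TER-119 at 0.103, near the bottom of the scale. B220 (0.211) and CD5 (0.240) were higher, and Gr1 (0.812) and CD79b (0.915) were higher still. CD135 (0.0828), the product of the gene that drives the Cre, was close to CD8a. Lineage-positive cells had been sorted away, and the cells still carried the purified antibodies used for that sort, among them ones against CD3, CD4, CD8, CD11b and Ter119.

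**Figure D2:**
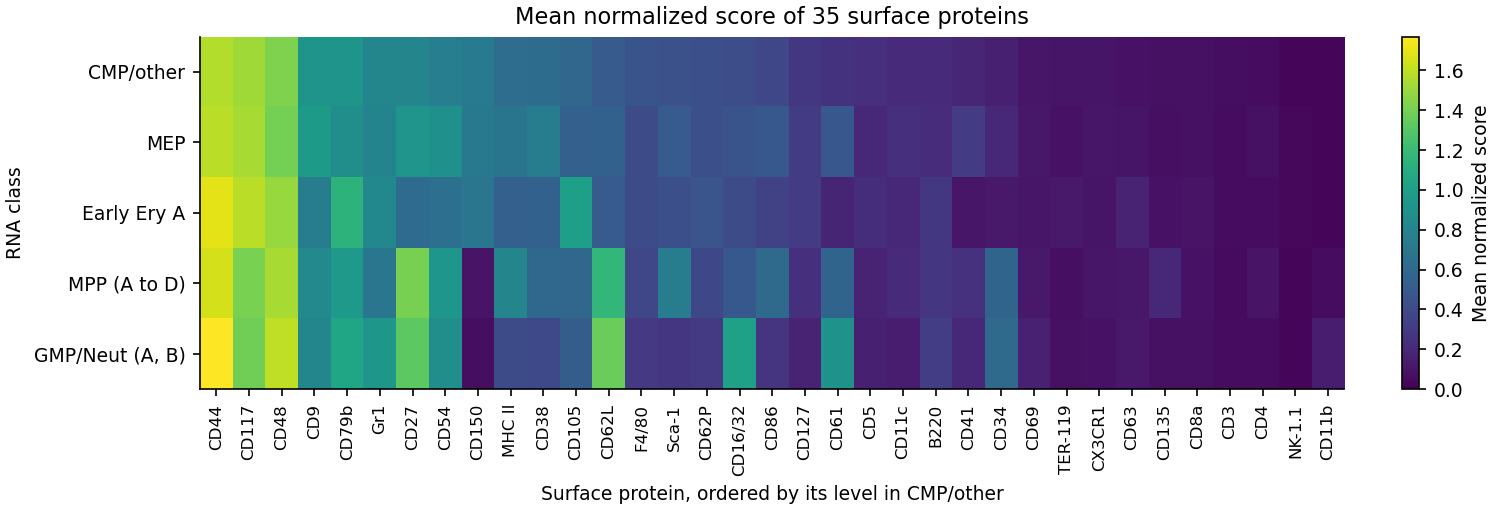
Mean normalized score (colour) of the 35 surface proteins, ordered from left to right by their level in CMP/other, in CMP/other, MEP, Early Ery progenitor A, MPP (A to D pooled) and GMP/Neut (A and B pooled). CMP/other and MEP look alike in most columns, and CD150, pooled over all cell groups, is near 0 in MPP (0.0931) and GMP/Neut (0.0683). CD62L, CD27 and CD34 are lower in CMP/other than in MPP and GMP/Neut. They are as low or lower in Early Ery progenitor A (0.508, 0.619 and 0.124).

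Measured by the Euclidean distance between mean profiles of the 35 proteins, MEP was the class nearest to CMP/other. The distance was 0.387 to MEP, 0.608 to Early Ery progenitor A, the earliest class of the erythroid series by its name, and 0.836 to Early Ery progentior B (spelled as in the table). MKP followed at 1.07 and MPP C at 1.096, and the nearest GMP/Neut class, B, lay at 1.60. CD61 made up 31.8% of the squared distance to MEP, and CD105 46.8% of that to Early Ery progenitor A. MEP stayed nearest when each letter was left out, when CD150 was dropped, in numbers 2 and 4, in numbers 1 and 3 and after thinning. In numbers 1 and 3 MKP replaced Early Ery progenitor A in second place.

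Single cells were also assigned to the nearest class mean, with means taken from the letters that did not hold the cell. With the mean of their own class on offer, 675 of 1133 CMP/other cells (59.6%) were nearest to it, 252 to MEP and 119 to Early Ery progenitor A. Without it, 710 cells (62.7%) were nearest to MEP, 331 (29.2%) to Early Ery progenitor A and 66 (5.83%) to MPP C. Another 14 were nearest to Early Ery progentior B, 9 to MKP, 2 to Lymphoid C and 1 to Ery C. The share nearest to MEP was 61.0% in young (57.3 to 64.7%) and 65.3% in old cells (60.6 to 69.9%), and these intervals overlap. Cells nearest to MEP had a median of 13253 UMIs and 692.5 ADT counts, and those nearest to Early Ery progenitor A 16049 and 580.

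Against MEP, no protein was higher and 5 of 35 were lower on CMP/other (14.3% called). A protein was called when its mean difference was at least 0.1 and had 1 direction in every cell group, here 12 groups with 1069 CMP/other cells and 510 MEPs. All 5 calls ended at equal depth. The integrin β3 chain CD61, which pairs with CD41 on megakaryocytes and platelets, differed most, with a mean score of 0.259 on CMP/other and 0.478 on MEP. Its difference within cell groups was -0.228 ± 0.113 (SD, n = 12), and thinned to 300 ADT counts it was -0.168 ± 0.0955. The adhesion molecule CD54 (ICAM-1) differed by -0.136 ± 0.0539 and the ectoenzyme CD38 by -0.123 ± 0.0497. CD27 differed by -0.120 ± 0.0537 and the co-stimulatory protein CD86 by -0.109 ± 0.0671, and without group C4 CD86 was at -0.0995, below the rule. Thinned, these were -0.0799 for CD54, -0.0785 for CD38, -0.0954 for CD27 and -0.0765 for CD86, so the 5 means kept their sign and 0 of 35 proteins was called (0.00%). MEPs had more ADT counts than CMP/other cells. Within CMP/other cells, Pearson's r with log10 ADT depth was 0.397 for CD38, 0.377 for CD86 and 0.350 for CD54 over 1133 cells centred on their cell group. It is not given here for CD61 and CD27. The part of depth in the 5 differences was not tested.

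The proteins that define CMP and MEP by flow cytometry did not pass the rule in this comparison. CD34 differed by -0.0712 ± 0.0759 and CD16/32 by -0.0658 ± 0.0631, each with 1 of 12 groups in the other direction. CD41, the platelet integrin αIIb, differed by -0.139 ± 0.0903 and was higher on CMP/other in 1 of 12 groups, D2, without which it was called (-0.153). Sca-1 was lower in all 12 groups, by -0.0705 ± 0.0523. CD117 (-0.00785 ± 0.0197), CD48 (0.00433 ± 0.0269), CD135 (0.00661 ± 0.0348), CD9 (-0.0352 ± 0.0400), CD150 (0.0276 ± 0.0378) and CD105 (0.0615 ± 0.0732) had differences below 0.1. Of the proteins grouped as adhesion and activation, 3 of 6 were lower (median -0.0801, against -0.0116 over all 35), and of the platelet and megakaryocyte proteins 1 of 6 (CD61). The lymphoid and the mature lineage groups had 0 of 8 each.

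Early Ery progenitor A was compared as the second nearest class, after it had been seen to be near. Of 35 proteins 6 were called (17.1%) over all 16 cell groups, 3 higher and 3 lower (8.57% each). CD105, which rises on erythroid-committed progenitors, was lower on CMP/other by -0.430 ± 0.0807 (SD, n = 16), with a mean score of 0.580 against 0.997. CD79b (-0.220 ± 0.0695) and CD44 (-0.127 ± 0.0264) were also lower. CD27 (0.260 ± 0.124), CD9 (0.221 ± 0.0593) and CD41 (0.148 ± 0.102) were higher. Over the single groups CD105 ran from -0.558 to -0.305, whereas CD41 began at 0.0101. Thinned, CD105 was -0.375, CD79b -0.171, CD27 0.343, CD9 0.315 and CD41 0.130, and CD44 (-0.0907) was no longer called. At that depth 7 of 35 proteins were called (20.0%), 5 higher (14.3%) and 2 lower (5.71%). CD150 (-0.00820 ± 0.0717) had no common direction, being higher in 9 of 16 groups, as were Sca-1 (-0.00967 ± 0.0404) and CD135 (-0.00739 ± 0.0234), higher in 7 and 4 of 16. CD34 (0.0675 ± 0.0819), CD16/32 (0.0501 ± 0.0961), CD48 (-0.0299 ± 0.0282) and CD117 (-0.0707 ± 0.0302) stayed below 0.1.

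GMP/Neut, whose label joins GMPs and neutrophil progenitors, were farther away. Of 35 proteins 16 were called (45.7%), 7 higher (20.0%) and 9 lower (25.7%) on CMP/other, over 12 cell groups. The homing receptor CD62L (L-selectin) had mean scores of 0.510 on CMP/other and 1.37 on GMP/Neut, and its difference was -0.861 ± 0.0843 (SD, n = 12). CD61 differed by -0.602 ± 0.0473 and CD16/32, which defines GMPs by flow cytometry, by -0.591 ± 0.0940. These 3 were also lower after thinning, by -0.795, -0.434 and -0.475. CD34 (-0.311 ± 0.136), CD27 (-0.198 ± 0.0714), Gr1 (-0.155 ± 0.0710), CD11b (-0.151 ± 0.0636), CD44 (-0.133 ± 0.0212) and CD54 (-0.119 ± 0.0342) were called as deposited but not after thinning. Their thinned means kept the sign, at -0.169 for CD34, -0.111 for CD27 and -0.0549 for Gr1. CD54 was then at -0.00513, and on log2 counts per 1000 it turned to 0.0472.

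Of the 7 proteins higher on CMP/other than on GMP/Neut, CD150 differed most. It stood at 0.722 against 0.0683 over all cells and differed by 0.403 ± 0.204 within cell groups. CD105 (0.281 ± 0.0619), CD9 (0.251 ± 0.0658), CD38 (0.181 ± 0.101), CD117 (0.123 ± 0.0299), Sca-1 (0.115 ± 0.0401) and P-selectin, CD62P (0.113 ± 0.0659), were higher in all 12 groups. These 7 were also called after thinning, when 14 of 35 proteins passed (40.0%), 11 of them higher (31.4%) and 3 lower (8.57%). CD117 then differed by 0.229 and CD9 by 0.370. CD41 (0.118 ± 0.0951) was higher in 10 of 12 groups and was called only after thinning (0.128). CD48 (-0.0309 ± 0.0489) and CD135 (-0.00609 ± 0.0327) showed no common direction. Of 8 myeloid and dendritic proteins, 3 were lower on CMP/other (CD11b, CD16/32 and Gr1) and none was higher, at a median of 0.0324. Of the 8 flow-cytometric gate proteins, 4 were higher and 2 lower.

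Against MPP, 11 of 35 proteins were called (31.4%), 3 higher (8.57%) and 8 lower (22.9%) on CMP/other, over 11 cell groups, and all 11 were also called after thinning. CD62L was lower by -0.606 ± 0.155 (SD, n = 11). Sca-1, the antigen that separates multipotent from myeloid-committed progenitors, had mean scores of 0.438 and 0.751 and differed by -0.380 ± 0.0880. CD27 (-0.318 ± 0.103), CD61 (-0.303 ± 0.125), CD86 (-0.301 ± 0.0595), CD34 (-0.282 ± 0.156), MHC II (-0.213 ± 0.0452) and CD54 (-0.209 ± 0.0476) were lower too. CD34 ran from -0.485 to -0.00522 over the groups, so its direction was shared but its size was not. Of the 6 proteins listed as multipotent and lymphoid-primed, 3 were lower (CD27, Sca-1 and CD34), with a median of -0.197 against 0.00559 over all proteins. CD135, a growth factor receptor gained by multipotent progenitors, differed by -0.113 ± 0.0719 and was higher on CMP/other in 1 of 11 groups, B2, without which it was called (-0.124).

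CD150 (0.309 ± 0.104), CD9 (0.236 ± 0.0778) and CD105 (0.221 ± 0.0577) were higher on CMP/other than on MPP in all 11 groups. For CD105 this holds within cell groups alone, because the means over all cells were 0.580 on CMP/other and 0.581 on MPP. CD16/32 (-0.0434 ± 0.0792), CD41 (0.0706 ± 0.119) and CD48 (0.0529 ± 0.0608) had no common direction, and CD117 was higher in 11 of 11 groups by 0.0757 ± 0.0347. After thinning, CD117 (0.133) and CD48 (0.102) were called as well, among 15 of 35 proteins (42.9%), 7 higher (20.0%) and 8 lower (22.9%). Both MPP and GMP/Neut were compared mostly in numbers 1 and 3, where CMP/other cells were few, since numbers 2 and 4 held 71 MPPs and 108 GMP/Neut cells.

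**Figure D3:**
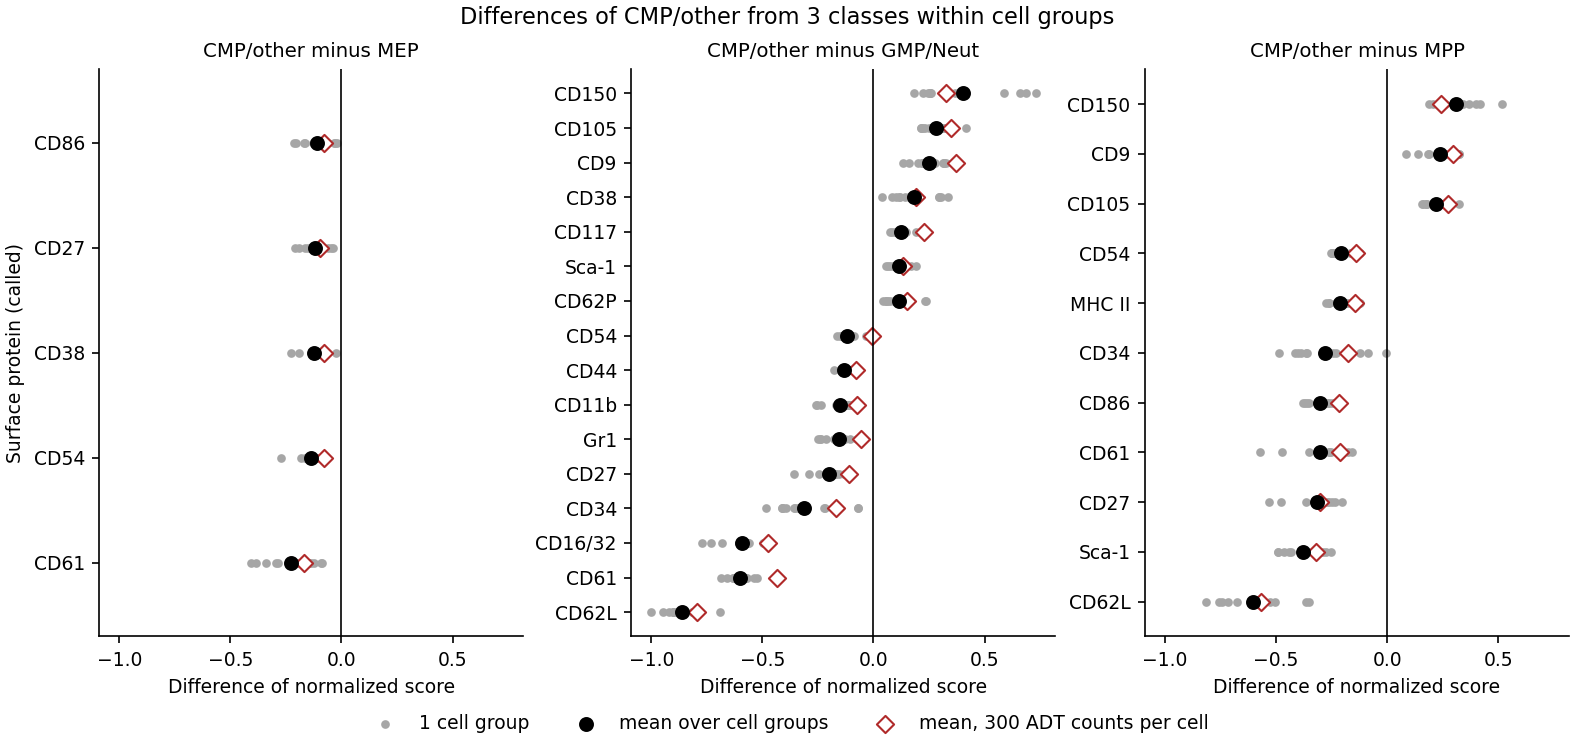
Differences of normalized score, CMP/other minus MEP, GMP/Neut or MPP, for each called protein. Grey points are single cell groups, black points their mean, and open red diamonds the mean after thinning to 300 ADT counts per cell; for MEP the diamonds move toward 0 (CD61 from -0.228 to -0.168), whereas CD62L against GMP/Neut stays at -0.795.

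Within CMP/other, several protein levels differed with the number of the cell group. The cells had been sorted as CD150- or CD150+, but the sort fraction behind each number is not named. The part of the sort in these levels and in the shares by number was not tested. The CD150 mean ran from 0.265 to 0.456 over the 8 groups of numbers 1 and 3 and from 0.737 to 0.989 over those of numbers 2 and 4, with no overlap. The published CD150 gate (score above 0.45) was passed by 52 of 195 cells (26.7%) in numbers 1 and 3 and by 853 of 938 (90.9%) in numbers 2 and 4. Of MEPs 19.5% and 91.7% passed in the same sets, and of GMP/Neut 0.265% and 2.78%. The gate was passed by 0.681% and 46.5% (33 of 71) of MPPs, and by 40.1% and 92.6% of Early Ery progenitor A. Within letter and age, numbers 2 and 4 minus 1 and 3 gave 10 of 35 proteins called (28.6%), 1 higher (2.86%) and 9 lower (25.7%), over 8 pairs of cell groups. CD150 was higher by 0.519 ± 0.0788 (SD, n = 8).

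CD27 was lower in numbers 2 and 4 by -0.402 ± 0.0520, CD105 by -0.285 ± 0.0804, CD41 by -0.223 ± 0.0651, CD48 by -0.222 ± 0.0237 and CD9 by -0.186 ± 0.0463. CD27 group means ran from 1.00 to 1.23 in numbers 1 and 3 and from 0.622 to 0.889 in numbers 2 and 4. For CD48 the ranges of 1.45 to 1.66 and 1.27 to 1.46 met, and for CD41 those of 0.284 to 0.457 and 0.0948 to 0.193 did not. CD79b (-0.215), CD44 (-0.112), CD34 (-0.110) and CD16/32 (-0.102) were also lower. Depth moved with the number, so the contrast was repeated at 300 ADT counts, where 12 of 35 were called (34.3%), 7 higher (20.0%) and 5 lower (14.3%). CD150 (0.560), CD27 (-0.313), CD105 (-0.199), CD48 (-0.162), CD79b (-0.129) and CD41 (-0.126) were called again. Sca-1 (0.141), Gr1 (0.155), CD62L (0.137), MHC II (0.127), CD62P (0.108) and CD117 (0.106) were called higher at equal depth only, and their means as deposited were also above 0, from 0.0246 for CD62P to 0.0706 for MHC II.

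**Figure D4:**
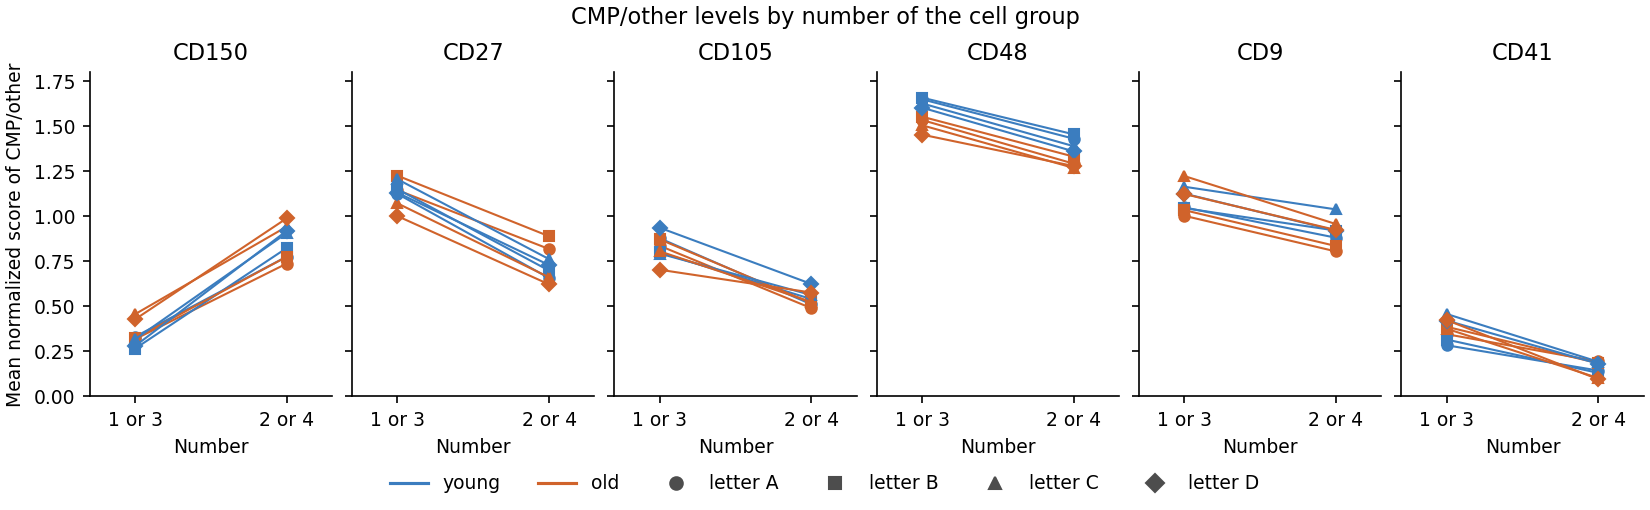
Mean normalized score of CMP/other cells by number of the cell group for 6 proteins; each line joins the 2 groups of 1 letter and age, blue for young and orange for old. All 8 CD150 lines go up, by 0.519 on average, and all 8 lines of CD27, CD105, CD48, CD9 and CD41 go down.

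In old against young CMP/other cells, 4 of 35 proteins were called within letters (11.4%), 1 higher (2.86%) and 3 lower (8.57%). MHC II, the antigen-presenting class II molecule, had mean scores of 0.893 in old and 0.514 in young cells of letter A and of 0.900 and 0.532 in letter B. In letter C they were 0.509 and 0.449, and in letter D 0.482 and 0.447. The old minus young difference was therefore 0.378 in A and 0.368 in B but 0.0594 in C and 0.0351 in D, with a mean of 0.210 ± 0.188 (SD, n = 4 letters). Old cells were higher in 4 of 4 letters, and most of the difference lay in A and B.

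CD38 was lower in old cells in all 4 letters, with a mean difference of -0.200 ± 0.0601. Its means were 0.462 in old and 0.707 in young cells of A, 0.456 and 0.708 in B, 0.578 and 0.756 in C, and 0.587 and 0.712 in D, so the old and young letters did not overlap. CD86 was lower by -0.190 ± 0.0449, with old means from 0.226 to 0.312 and young means from 0.439 to 0.467. CD48 was lower by -0.114 ± 0.0357, with old means from 1.33 to 1.38 and young means from 1.44 to 1.51. Without letter C the CD48 difference was -0.0965, below the rule. At 300 ADT counts 3 of 35 proteins were called (8.57%), MHC II (0.226) higher (2.86%) and CD38 (-0.153) and CD86 (-0.129) lower (5.71%), and CD48 (-0.0959) was not. The 4 proteins were called in numbers 2 and 4 alone and in numbers 1 and 3 alone. Old cells had fewer ADT counts, and the score of each of these proteins rose with ADT depth among CMP/other cells, with r of 0.325 for MHC II and 0.342 for CD48. MHC II differed with age by 0.210 as deposited and by 0.226 at 300 ADT counts. The part of depth in the age differences was not tested.

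The same 4 proteins were then read in the other classes, with no test of a difference between classes. MHC II was higher in old cells by 0.271 ± 0.205 in MEP, 0.268 ± 0.213 in MPP and 0.103 ± 0.0903 in GMP/Neut (SD, n = 4 letters). In Early Ery progenitor A it differed by 0.163 ± 0.207 and was lower in old cells of letter D (-0.0435). In all 5 classes the values of A and B lay above those of C and D. CD38 was lower in old cells by -0.163 in MEP, -0.173 in MPP, -0.186 in GMP/Neut and -0.215 in Early Ery progenitor A, and CD86 by -0.183, -0.217, -0.124 and -0.176. CD48 was lower by -0.124 in MEP and -0.0885 in Early Ery progenitor A, and by -0.0523 in MPP and -0.0452 in GMP/Neut. The age differences of CMP/other were thus present in its neighbours with the same direction of the mean.

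**Figure D5:**
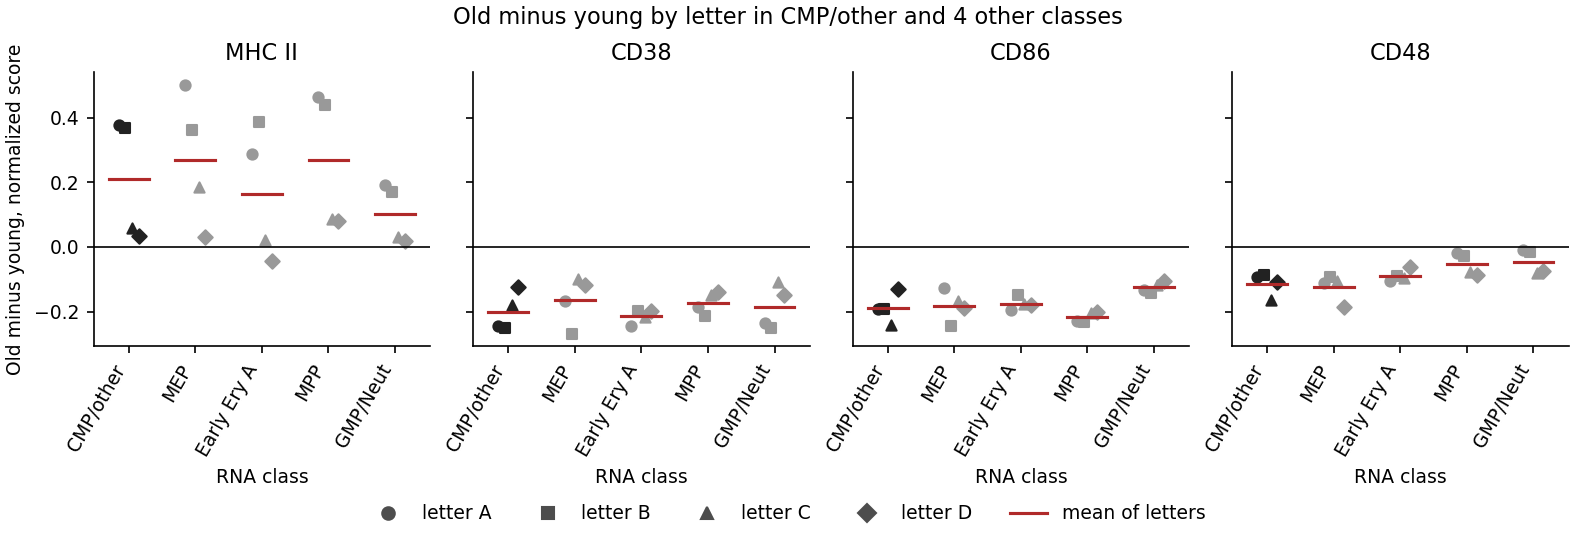
Old minus young difference of normalized score by letter (symbols) for the 4 proteins called in CMP/other (dark symbols), beside MEP, Early Ery progenitor A, MPP and GMP/Neut (grey symbols); red lines are means over the 4 letters. The MHC II symbols of letters A and B (0.378 and 0.368 in CMP/other) lie above those of C and D in every class, and the CD38 and CD86 symbols lie below 0.

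The remaining named proteins had no common direction with age in CMP/other, except CD9, which was lower in 4 of 4 letters by a mean of -0.0379 ± 0.0245. CD27 was higher in old cells of A (0.212) and B (0.235) and lower in C (-0.195) and D (-0.125). CD150 did the reverse, at -0.114, -0.112, 0.179 and 0.111. CD41 followed CD27, at 0.0788, 0.0871, -0.138 and -0.0658. These 3 proteins were among those that differed between numbers, and the mix of numbers within a letter differed between ages. CD117 (0.00628 ± 0.00970), CD34 (-0.0469 ± 0.0739), CD16/32 (-0.00908 ± 0.0806), Sca-1 (0.0179 ± 0.0666), CD105 (-0.0243 ± 0.0775) and CD135 (-0.00398 ± 0.0122) differed by less than their SD over letters.

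Most CMP/other cells lay inside the study's protein gates for myeloid progenitors, as did most MEP, Early Ery progenitor A and GMP/Neut cells. The authors had removed cells negative for both CD117 protein and Kit RNA. All 1133 passed the CD117 gate (score above 1), and 92.4% (90.7 to 93.9%) also passed the Sca-1 gate (below 0.71), 94.8% of young and 88.5% of old cells. The cells had been sorted as c-Kit+, and the CD117 gate also took 100% of MEPs and 99.9% of MPPs and of GMP/Neut. Both gates together took 85.3% of MEPs, 94.4% of Early Ery progenitor A, 98.9% of GMP/Neut and 51.0% of MPPs. The CD48 threshold of 1.1 was exceeded by 706 of 706 young cells and 418 of 427 old cells. It was also exceeded by 94.9% of MEPs, 99.7% of Early Ery progenitor A and 96.2% of MPPs. Only 3.44% exceeded the CD41 threshold of 0.6. The megakaryocyte progenitor gate (myeloid, CD150 above 0.45 and CD41 above 0.6) took 11 CMP/other cells (0.971%), 2 young and 9 old, all above the CD48 threshold. The same gate took 6.39% of MEPs, 56.7% of MKPs and 0 of 5775 GMP/Neut cells, for which the exact interval ends at 0.0639%.

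The authors' Egfp call was negative in 65 CMP/other cells (5.74%, 4.46 to 7.25%). It was negative in 33 of 706 young (4.67%, 3.24 to 6.50%) and 32 of 427 old cells (7.49%, 5.18 to 10.4%), with overlapping intervals. The negative share was 10.3% in MEP, 34.3% in MKP, 72.5% in HSC, 3.56% in MPP and 2.55% in GMP/Neut. Early Ery progenitor A had a negative share of 3.08%. Pooled over letters, CMP/other was thus switched to GFP at a share between those of MEP and MPP. Its negative share varied with the letter. Letters A and B had 4.37 and 4.42%, whereas letters C and D had 11.5 and 14.1%. The GFP calls of the other classes were not split by letter, so the part of letter mix in the order of the classes was not tested. An unswitched cell can also be a cell whose Egfp RNA was not captured, and GFP- cells of the class had 12898 UMIs at the median against 13913.5 in GFP+ cells. Among old cells, MHC II averaged 0.652 in the 32 GFP- and 0.847 in the 395 GFP+ cells, and Sca-1 averaged 0.368 and 0.483. Among young cells, CD150 averaged 0.853 in the 33 GFP- and 0.745 in the 673 GFP+ cells. Each of these gaps was smaller than the SD over GFP+ cells (0.351, 0.203 and 0.292). These means were pooled over letters, and the gaps of the other proteins are not given here. Among old cells the GFP- share was 22.2% in letter D, against 5.32%, 7.02% and 6.25% in A, B and C. The part of letter mix in the gaps was not tested.

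Among single CMP/other cells, CD38, CD86 and CD16/32 varied together. Pearson's r within cell groups over 1133 cells was 0.558 for CD38 with CD86 (Spearman's rho 0.546), 0.523 for CD38 with CD16/32 (rho 0.524) and 0.469 for CD86 with CD16/32 (rho 0.458). CD44 and CD117 also rose together across cells (r 0.475, rho 0.423), while CD117 ran against CD38 (r -0.379, rho -0.394). These cells share libraries and a per-cell scaling that ties all proteins together, and all 3 of CD38, CD86 and CD16/32 moved with ADT depth (r 0.397, 0.377 and 0.358). The correlations are descriptions, and the part of depth in them was not tested.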

How the data were processed

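Surface proteins were measured by CITE-seq in c-Kit-enriched bone marrow of young and old FlkSwitch mice, and the 8 libraries form 1 group because the names of the cells match no library title. Per the submitters' notes, Cell Ranger and the build mm10 were used for the reads, and the version of Cell Ranger is not given in the sources used here. The authors deposited ADT counts of 35 antibodies in 22790 cells, a cell table for 22602 of them, RNA and ADT count totals, the percent of mitochondrial reads per cell, and a normalized score per protein. The deposited score was rebuilt from the counts (count over the geometric mean of counts plus 1, then the logarithm of 1 plus the value, 2 times) with a largest gap of 5e-10. Ages, RNA classes and Egfp calls are the authors' annotations, and no per-gene RNA values were used here. Doublet treatment is not given in the sources used here, and no cells were removed, except where cells were thinned.

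CMP/other was compared with MEP, GMP/Neut (A and B), MPP (A to D) and, added after seeing the distances, Early Ery progenitor A. Within cell groups with at least 10 cells of each class (letters for age), mean scores were subtracted. A call needed a mean difference of 0.1 and 1 direction throughout. Named proteins were the 10 largest called differences and 11 proteins given throughout, namely CD117, CD9, CD48, CD27, CD34, CD16/32, Sca-1, CD150, CD41, CD105 and CD135. F4/80, CD63 and the contrast between numbers were chosen after their values were seen. Members, protein lists and comparisons were chosen with earlier results of these data known. Cells with 300 or more ADT counts were thinned to 300 (seed 0). Other alternatives were letters as units, no pairing, at least 20 cells, medians, a window of the 10th to 90th percentile of depth, log2 of counts per 1000 plus 1, centring on lineage antibodies, each age or number set alone, a minimum difference of 0.2, and gates shifted by 0.1. Shares carry exact Clopper-Pearson 95% intervals, and intervals and limits cover counting error only. On simulated data for 1133 cells, 4 of 4 shifted proteins had the right sign, 3 were called, and 0 of 31 unshifted proteins were called. The cells were split at random and drawn from 1 pooled profile apart from the shifts, without a cell-group effect or a set difference in depth. The simulation therefore cannot show how often depth or cell group gives a call. Computations ran in pandas 2.3.3, numpy 2.4.6 and scipy 1.17.1 under Python 3.11.15, and plots in matplotlib 3.10.9.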

Additional observations from a re-analysis of the deposited data

How the results depend on the processing

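With 5 proteins called against MEP, the count was 0 after thinning to 300 ADT counts, 3 in the window of ADT depth, 1 on log2 counts per 1000, 3 in young and 8 in old cell groups, and 1 at a minimum difference of 0.2. At 0.2 the count was 7 against GMP/Neut (16) and 2 for old minus young (4). Against Early Ery progenitor A it rose from 6 to 12 in the depth window, on log2 counts per 1000 and in numbers 1 and 3, and to 11 in young groups. Thinning sets all cells to 1 depth, and the cause of these changes was not tested. Without pairing, CD105 against MPP was at -0.000827.

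Leaving out 1 letter moved the share of CMP/other between 3.98% (without B) and 5.95% (without D). The myeloid gate took 95.5% of CMP/other cells after thinning, and 79.96% or 96.9% with the Sca-1 threshold lowered or raised by 0.1. The CD48 threshold gave 99.9% lowered and 96.8% raised by 0.1, and the megakaryocyte gate 3.62% and 0.441% with CD41 lowered or raised. The mean RNA depth was 15126.5 UMIs. The distance to MEP was 0.306 thinned and 0.506 in numbers 1 and 3. Of the main values under the other settings, 68 stayed within 1.5 times the count or within the spread and 22 did not. With a cell group or letter left out, 91 did and 4, all of them the share of CMP/other, did not. Differences were taken within cell groups or letters. No paired analysis was possible because the cells carry no replicate number of a library and no test was run. Depth (679 ADT counts per cell) limits proteins near 0, and small cell groups of numbers 1 and 3 (10 to 47 cells) limit the GMP/Neut and MPP comparisons.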
